A study of Mus musculus with 4 samples.

Results

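The Myod1 locus was examined as the 100 kb of mouse chromosome 7 from 46.2 to 46.3 Mb (mm8, positions counted from 1), which holds the Myod1 gene near 46.24 Mb and its upstream enhancers. The interval was fixed by position, not by its read counts, and was cut into 200 tiles of 500 bp, of 5261338 in the genome, and 25 windows of 4 kb, of 657696. The cells were MDER 10T cells, labelled as mouse fibroblasts, which carry an estrogen-inducible MyoD1 per the series title. They grew in DMEM/F12 without phenol red and with 10% FCS, no estrogen treatment is named, and all libraries came from this 1 culture condition. Chromatin immunoprecipitation and sequencing (ChIP-seq) gave 1 library each for H3K4me3, H3K27me3 and H3K9me3, all with Abcam antibodies. The control was a library of the whole-cell extract (WCE) without any immunoprecipitation. The fibroblast label was not checked against marker genes, because no gene positions of this build were at hand.

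Myod1 encodes MyoD, a basic helix-loop-helix transcription factor that can turn fibroblasts into muscle cells. In fibroblasts the resident gene is normally silent, and 2 enhancers upstream of it, the distal regulatory region and the core enhancer, act in muscle precursors. H3K4me3 is typical of promoters, H3K27me3 of genes held silent by Polycomb, and H3K9me3 of heterochromatin. Estrogen-inducible forms of MyoD are made by joining its coding sequence to the hormone-binding part of an estrogen receptor, though the labels do not describe the construct used here. The coding sequence of the resident gene is split by introns. A copy made from mRNA lacks them, so copies inserted elsewhere in the genome would add aligned reads over the coding exons and not over the introns. No mm8 annotation was used here, so the exons were not placed on these coordinates and the stated position of the gene was not checked. In the GRCm38.p6 gene table, the nearest protein-coding neighbours of Myod1 are Otog on the lower side and Kcnc1 on the higher side.

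Each group held 1 library, so the differences below have no replicate check, and a test on reads compares 2 libraries and not conditions. Distinct reads on autosomes numbered 2101444 to 3086567 per library, or about 7 WCE reads in a median 4 kb window of the locus. Intervals are exact 95% Clopper-Pearson intervals and cover counting error only. The ratio of a mark to WCE was scaled by the autosomal totals of both libraries. A window was called where the exact binomial test gave a Benjamini-Hochberg adjusted p under 0.05 over the whole genome and the ratio was at least 2.

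A single 4 kb window, from 46244001 to 46248000, stood out in all 4 libraries. Here 73 reads came from H3K4me3, 35 from H3K27me3, 86 from H3K9me3 and 27 from WCE. In the other 24 windows, H3K4me3 had 1 to 9 reads (median 4), H3K27me3 3 to 26 (median 12), H3K9me3 1 to 9 (median 5) and WCE 3 to 11 (median 7). In each library the window therefore lay above every other window of the locus. Set against the mean of the other 24 windows of the same library, H3K9me3 was 17.6-fold higher (13.2 to 23.5) and H3K4me3 15.9-fold higher (11.7 to 21.6). The rise was 2.59-fold (1.77 to 3.68) for H3K27me3 and 4.10-fold (2.62 to 6.20) for WCE. The control library was therefore not flat here. The window was picked as the one of the locus with the most H3K4me3 reads, so the H3K4me3 rise follows in part from that choice.

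**Figure D1:**
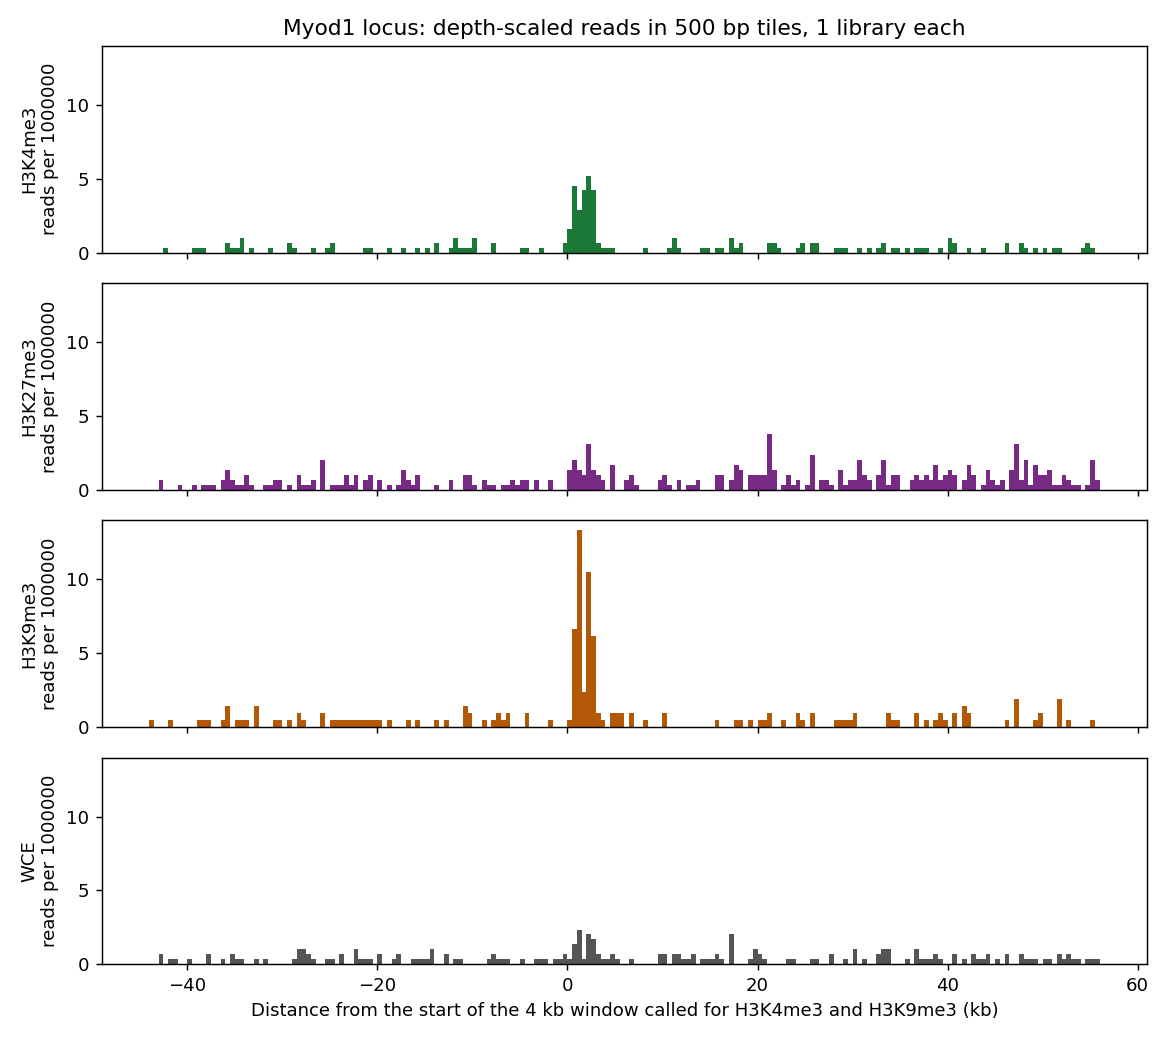
Reads per 1000000 distinct autosomal reads (vertical axis, same scale in each panel) in the 200 tiles of 500 bp, against distance in kb from the start of the window at 46244001, for the 4 libraries. Every library has its densest reads within 3 kb of that start except H3K27me3, whose highest tile lies about 21 kb further on.

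H3K4me3 and H3K9me3 were both called in this window, and H3K27me3 was not. The H3K4me3 ratio to WCE was 2.61 (1.66 to 4.22), with an adjusted p of 0.000276 in the exact binomial test. For H3K9me3 the ratio was 4.51 (2.90 to 7.24), with an adjusted p of 3.78e-09. For H3K27me3 it was 1.32 (0.774 to 2.26), with an adjusted p of 1. It was the only window of the 25 called for H3K4me3, where 2.33% of all tested windows were called, and the only one called for H3K9me3, where 0.0195% were. The H3K4me3 call was lost when a ratio of 3 was required, and with 1 kb windows no window of the interval was called for H3K4me3 while 1 was for H3K9me3. With a uniform genome mean in place of WCE the window was called for H3K27me3 as well, at a ratio of 7.02 and an adjusted p of 5.56e-16 in a one-sided exact Poisson test. Because WCE rose in the same place, the ratios depend on the control: against the mean WCE count of the other 24 windows, a control chosen after the data were seen, they were 10.7 for H3K4me3, 5.40 for H3K27me3 and 18.5 for H3K9me3.

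Neither call had another of its mark within the interval. Calls were sparse in the whole genome, with 13541 of 580320 tested windows for H3K4me3 and 114 of 585662 for H3K9me3. The distances below were not compared with the usual spacing of calls. The nearest other windows called for H3K4me3 lay 340 kb away on the lower side, at 45900001, and 256 kb away on the higher side, at 46504001. For H3K9me3 the nearest lay 40.1 Mb and 17.7 Mb away. No other window of the interval, and hence none toward Otog or Kcnc1 within it, was called for either mark. Comparing marks directly in the window at 46244001, H3K9me3 was 1.73 times H3K4me3 after depth scaling (1.25 to 2.40) and 3.43 times H3K27me3 (2.29 to 5.24). The first of these depended on the scaling: with the median of 100 kb bins in place of autosomal totals, an alternative chosen for these pairs after the data were seen, H3K9me3 was 1.10 times H3K4me3 (0.799 to 1.53), an interval that includes 1. H3K4me3 was 1.98 times H3K27me3 (1.31 to 3.06), just under the 2-fold needed for a call, and it was called when every read was kept.

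**Figure D2:**
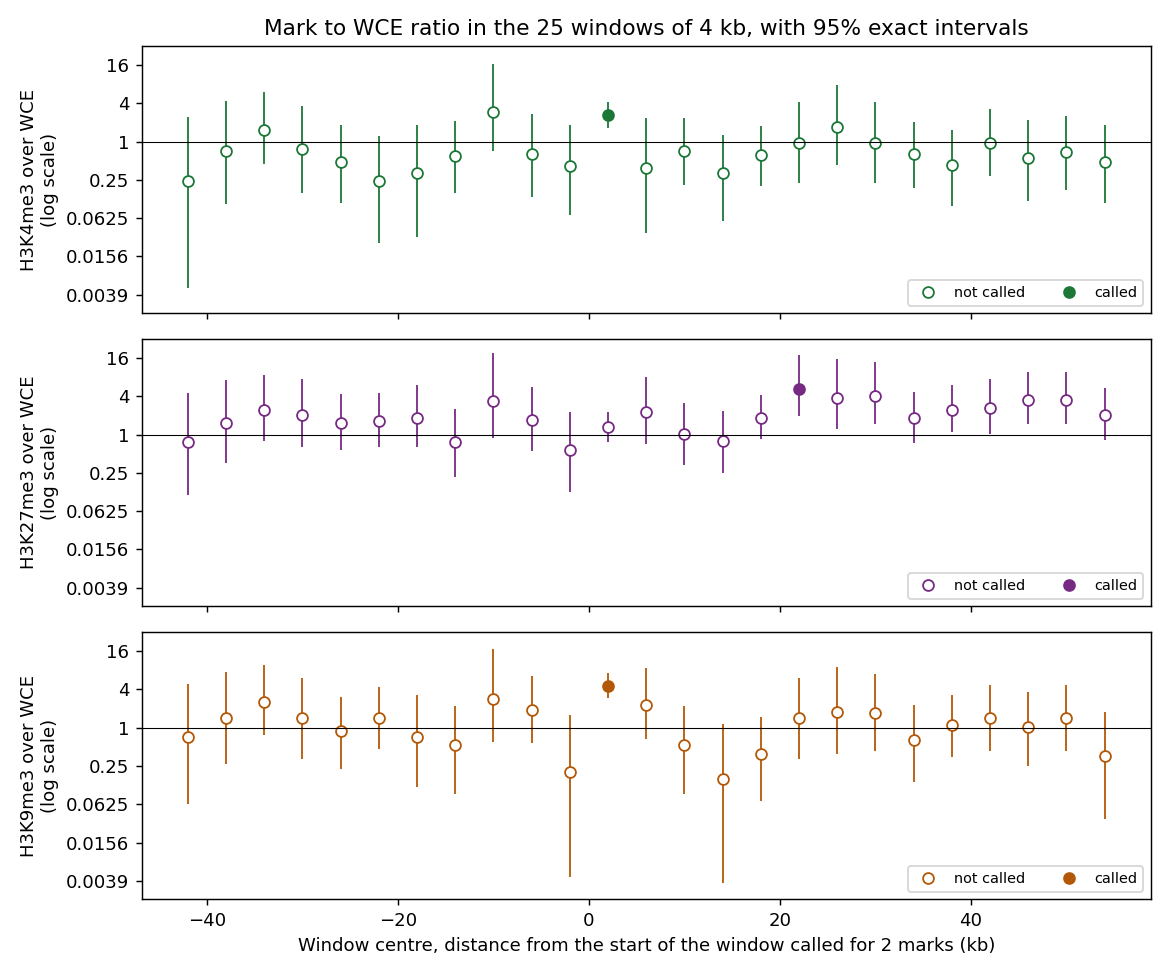
Ratio of each mark to WCE (log scale) in the 25 windows of 4 kb, at the window centre in kb from 46244001, with 95% exact intervals and filled points for called windows. One window is called for H3K4me3 and for H3K9me3 (ratios 2.61 and 4.51), and a different one for H3K27me3 (5.28).

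At finer scale the reads fell within about 3 kb. Over the 8 tiles of 500 bp from 46244001, H3K4me3 counts were 5, 14, 9, 13, 16, 13, 2 and 1. The H3K9me3 counts over the same tiles were 1, 14, 28, 5, 22, 13, 2 and 1. For WCE they were 1, 4, 7, 1, 6, 5, 2 and 1, and for H3K27me3 4, 6, 4, 3, 9, 4, 3 and 2. H3K4me3 stayed high across the middle, whereas H3K9me3 and WCE each had 2 peaks with a low tile at 46245501 between them. The tile at 46245001 held the most H3K9me3 and the most WCE reads of the 200. Of 4924839 autosomal tiles, 0.0016% held at least 28 H3K9me3 reads and 0.12% at least 7 WCE reads. No single tile was called for any mark, where 1.05% of tested tiles were called for H3K4me3, 0.00519% for H3K27me3 and 0.00019% for H3K9me3. One tile was called for H3K4me3 when every read was kept. The tile that begins at 46.24 Mb held 0 reads in all 4 libraries. The gene is stated only as near that position, which was not checked, so the tile need not lie in the gene. The marked stretch began about 4 kb beyond the start of that tile.

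**Figure D3:**
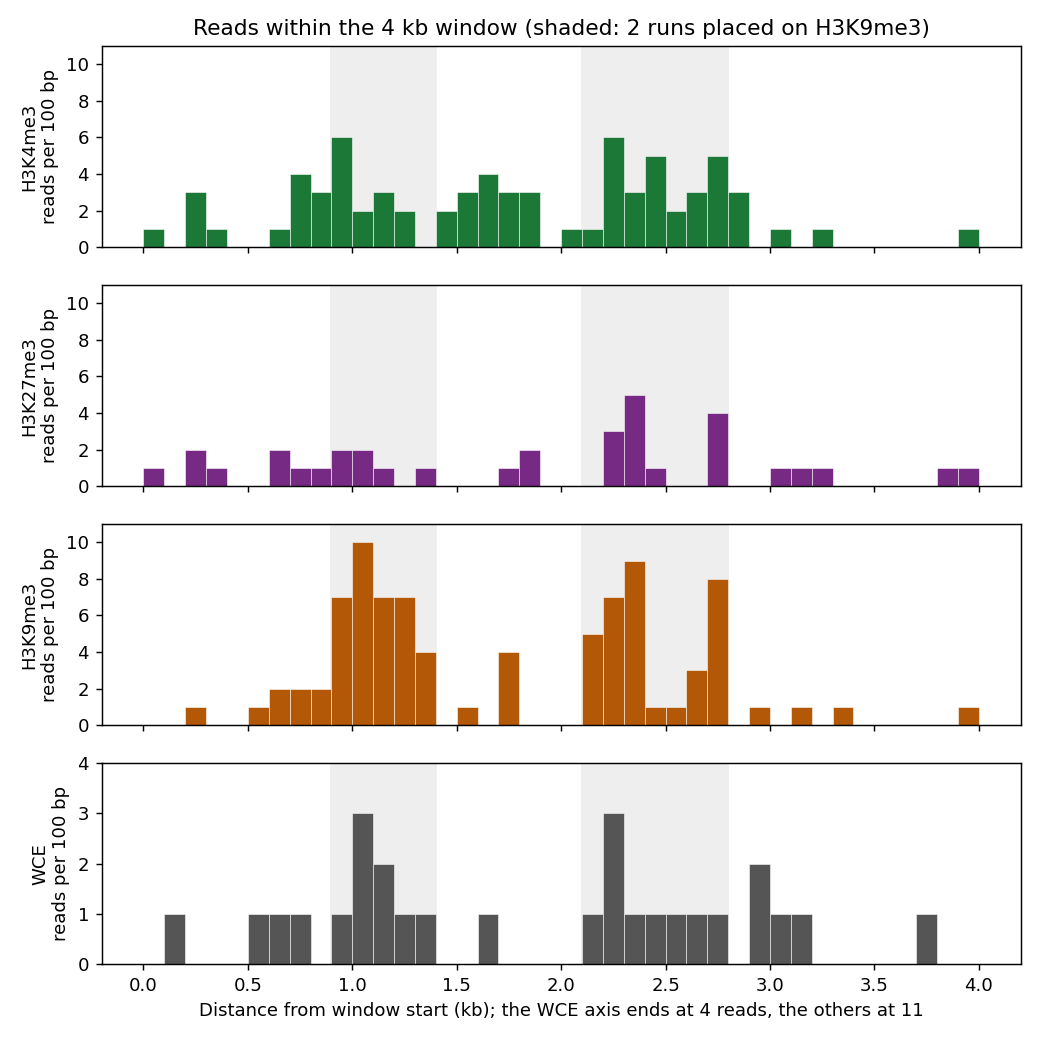
Reads per 100 bp bin within the window at 46244001, against distance from its start in kb, for the 4 libraries (the WCE axis ends at 4 reads, the others at 11). Shaded areas are the 2 runs placed on H3K9me3 reads; between them lie 16 H3K4me3 reads but 5 H3K9me3 reads and 1 WCE read.

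In bins of 100 bp the H3K9me3 reads formed 2 runs, from 46244901 to 46245400 and from 46246101 to 46246800. A run joins bins with at least 3 H3K9me3 reads across at most 2 lower bins and needs 3 or more such bins, which leaves out 1 lone bin of 4 reads between the runs. These limits were set after the H3K9me3 counts were seen, so the values are a description without a test. The runs held 35 and 34 of the 86 H3K9me3 reads, and the 700 bp between them held 5. WCE, which was not used to set the limits, had 8 and 9 of its 27 reads in the runs and 1 between them. H3K27me3 had 6 and 13 in the runs and 3 between. H3K4me3 had 13 and 25 in the runs and 16 between.

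Per kb, WCE read density was 14.2 in the runs, 1.43 between them and 1.65 over the 96 kb outside the window. The WCE runs were thus 8.61-fold above the rest of the interval (4.89 to 14.2), while the stretch between them was at 0.868 of it (0.0218 to 4.91). H3K9me3 density was 57.5 per kb in the runs and 7.14 between them, against 1.22 outside. H3K4me3 density was 31.7 in the runs and 22.9 between them, against 1.15 outside. Its density between the runs was 19.9-fold that outside the window (11.02 to 33.9), the highest such value of the 4 libraries. For H3K9me3 that value was 5.86 (1.87 to 14.1) and for H3K27me3 1.27 (0.261 to 3.74). H3K27me3 density was 15.8 reads per kb in the runs, 4.29 between them and 3.38 outside. The H3K9me3 contrast between runs and gap follows from how the limits were set. For H3K4me3, which was not used to set them, the run-to-gap ratio was 1.39 (0.754 to 2.66). H3K27me3, also not used to set them, had a ratio of 3.69 (1.09 to 19.5), with 3 reads between the runs. With 1 read between the runs, the WCE ratio of 9.92 had a wide interval (1.55 to 414).

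The narrow WCE rise was also measured in the 3 kb with the most H3K4me3 reads, from 46244001 to 46247000, a placement that does not use WCE. It held 24 WCE reads, or 8.0 per kb, against 1.66 per kb in the rest of the interval. The fold was 4.82 (3.0 to 7.43). The H3K9me3 library gave 22.4-fold (16.7 to 29.8) there. For H3K4me3 the fold was 20.03 (14.6 to 27.2), which follows in part from the placement on H3K4me3 reads. A further tile with 6 WCE reads lay at 46261001, where H3K4me3 had 3 reads, H3K27me3 2 and H3K9me3 0. The WCE rise at 46244001 was wider, with 4 to 7 reads in 4 of the 5 tiles from 46244501 to 46247000.

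Repeated positions added few reads. With every read kept, the window held 76 H3K4me3, 36 H3K27me3, 91 H3K9me3 and 27 WCE reads, at most 5 more per library. Both strands contributed: 35 of the 73 H3K4me3 reads, 19 of the 35 H3K27me3 reads, 35 of the 86 H3K9me3 reads and 14 of the 27 WCE reads were on the forward strand. No read with 2 reported positions fell in the window in any library. Such reads numbered 2 to 9 per library in the whole interval, with the most in WCE.

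WCE reads rise at many H3K4me3 windows, so the window was set beside windows with like H3K4me3 counts, a range chosen around its own count of 73. Of 5213 autosomal windows with 50 to 100 H3K4me3 reads, 2.53% held at least 27 WCE reads, with a median of 13. Measured against the other 24 windows of its own 100 kb, the WCE fold of 4.10 was reached by 0.788% of the 4820 such windows that had at least 100 WCE reads around them, with a median of 1.69. H3K9me3 counts of at least 86 occurred in 15 other windows of the 5213, and each of these held 80 to 189 WCE reads. Among the other windows with fewer than 80 WCE reads, the highest H3K9me3 count was 67. None of them could reach 86, since 80 is the lowest WCE count of those 15 windows. Over the 13163 autosomal windows called for H3K4me3, the median H3K9me3 count was 9 and no window exceeded the 86 found here. That follows in part from the call, which leaves out windows where WCE is high beside H3K4me3. Of the windows with 50 to 100 H3K4me3 reads, 14 exceeded 86 H3K9me3 reads without the call as a filter and 0 with it. Of the 12 windows in the genome called for both H3K4me3 and H3K9me3, this one had the most H3K9me3 and the most WCE reads. The medians of these 12 windows were 48.5 H3K9me3 and 14.5 WCE reads. This ranking is by read counts. By H3K9me3 ratio to WCE the window was not the highest of those with 50 to 100 H3K4me3 reads. The one with 67 H3K9me3 reads held 16 WCE reads, against 86 and 27 here. The ratio was not ranked further.

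**Figure D4:**
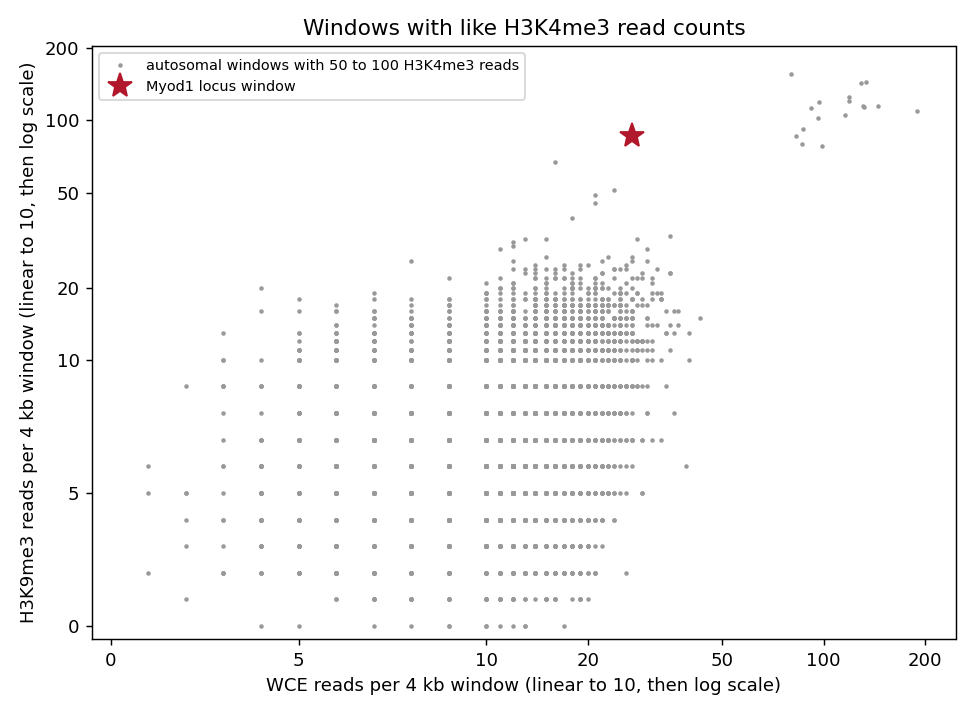
H3K9me3 against WCE reads per 4 kb window (both axes linear to 10, then log scale) for the 5213 autosomal windows with 50 to 100 H3K4me3 reads. The Myod1 locus window (star) has 27 WCE and 86 H3K9me3 reads. The highest H3K9me3 count of the other windows with fewer than 80 WCE reads is 67, at 16 WCE reads. The limit of 80 is the lowest WCE count of the other windows with at least 86 H3K9me3 reads. No other window below it can therefore reach 86.

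The deposited lists hold read positions without sequences. Over sequence that an inserted coding copy holds, its reads and those of the resident gene align to the same place. The mark over the resident gene and the mark over a copy therefore cannot be told apart there. A copy made from mRNA would add no reads over introns. The exons were not placed here, so the reads between the runs cannot be assigned either. The single WCE read between the runs does not fix the control level there, since its interval holds both the level of the surroundings and the 4.10-fold rise of the whole window. The upper limit of that interval, 4.91, is below the 8.61-fold rise of the runs, whose own interval begins at 4.89. Fragments of 50 to 200 nt also blur the limits of the runs.

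The windows at the distances of the known enhancers carried no called mark. Of all tested windows, 2.33% were called for H3K4me3, 0.624% for H3K27me3 and 0.0195% for H3K9me3. Taking 46244501 as the start of the marked stretch and the gene as read toward higher coordinates, the distal regulatory region, about 5 kb upstream, fell in the window at 46236001. That window held 4 H3K4me3, 10 H3K27me3, 8 H3K9me3 and 6 WCE reads. The core enhancer, about 20 kb upstream, fell in the window at 46224001, with 2 H3K4me3, 11 H3K27me3, 3 H3K9me3 and 6 WCE reads. H3K27me3 ratios were 1.69 (0.557 to 5.66) and 1.86 (0.631 to 6.13), and H3K4me3 ratios 0.643 (0.133 to 2.71) and 0.322 (0.0317 to 1.80). At 6 WCE reads per window, the intervals include 1 for each mark, and a moderate enrichment was not detectable at this depth. The next window, which ends at 46244000 and adjoins the marked one, held 3, 4, 1 and 7 reads of H3K4me3, H3K27me3, H3K9me3 and WCE. Its ratios were the lowest of the 3 windows for H3K9me3, at 0.202 (0.00449 to 1.58), and for H3K27me3, at 0.580 (0.125 to 2.28). Both enhancer points lie close to a window edge and the start was not checked, so either may fall in an adjoining window. For the core enhancer that is the window at 46220001, with 2 H3K4me3, 13 H3K27me3, 8 H3K9me3 and 8 WCE reads and no call.

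H3K27me3 was spread over the interval, most of all on the higher side of the marked window toward Kcnc1, which encodes a voltage-gated potassium channel. From 46264001 to the end of the interval, 9 windows held 15 to 26 H3K27me3 reads and 4 to 9 WCE reads each. Together they had 181 H3K27me3 and 61 WCE reads, a ratio of 3.01 (2.24 to 4.10). In these 9 windows the H3K4me3 ratio was 0.743 (0.497 to 1.11) and the H3K9me3 ratio 1.12 (0.748 to 1.65), both below the H3K27me3 interval. The limits of this stretch were chosen after the counts were seen. In the 16 kb between it and the marked window the H3K27me3 ratio was 1.41 (0.885 to 2.28), on the lower side of that window 1.54 (1.11 to 2.14), and in the 16 kb beyond the interval 0.850 (0.510 to 1.41). The preceding 100 kb had an H3K27me3 ratio of 2.27 (1.87 to 2.76) and the following 100 kb 0.833 (0.664 to 1.04).

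The window at 46264001 alone was called for H3K27me3, where 0.624% of all tested windows were called. It held 26 H3K27me3 reads against 5 WCE, 5 H3K4me3 and 5 H3K9me3 reads, with a ratio of 5.28 (1.99 to 17.6) and an adjusted p of 0.0184 in the exact binomial test. The tile at 46265001 within it had the most H3K27me3 reads of the 200, with 11, beside 0 WCE reads. The call was lost at an adjusted p under 0.01, with 1 kb windows and with the higher of the local and surrounding WCE levels as control. With a uniform genome mean in place of WCE, 12 windows were called.

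H3K27me3 exceeded H3K4me3 in 4 of the 25 windows in the direct test of both libraries, where 2.35% of all tested windows were called in that direction. These began at 46264001 (26 H3K27me3 and 5 H3K4me3 reads), 46280001 (22 and 4), 46288001 (24 and 4) and 46292001 (24 and 5). All 4 lay on the higher side of the marked window. No window was called with H3K4me3 higher, where 2.58% of tested windows were. The 4 calls depended on the scaling: with the median of 100 kb bins instead of autosomal totals, none of the windows was called with H3K27me3 higher and 1 with H3K4me3 higher.

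Over the whole 100 kb there were 183 H3K4me3, 359 H3K27me3, 203 H3K9me3 and 185 WCE reads. The H3K27me3 ratio was 1.97 (1.65 to 2.36), a value that 3.06% of 21042 autosomal 100 kb bins with at least 50 WCE reads reached. The H3K9me3 ratio was 1.55 (1.27 to 1.91), reached by 3.87% of bins, but it was 1.05 without the called window. The H3K4me3 ratio was 0.954 (0.774 to 1.18), reached by 29.1% of bins, and 0.672 without the called window, where the median bin stood at 0.603. Scaled by that median in place of autosomal totals, the H3K4me3 ratio over the interval was 1.58.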

How the data were processed

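Per the file headers, the authors aligned reads to mm8 with Bowtie (n 2, l 36, e 70, k 2, m 2). Each deposited line is 1 read position, signed by strand. The deposited lists hold no counts per region. Positions were taken as counted from 0 and 1 was added. Per the labels' protocols, chromatin was sheared to a mean of 500 bp, amplified for 18 cycles, and inserts of 50 to 200 nt were kept.

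Reads with 1 reported position were collapsed to 1 per position and strand and moved 60 bp along their strand. They were counted in 500 bp and 4 kb windows on chromosomes 1 to 19, X and Y. Each mark was compared with WCE by a one-sided exact binomial test, and H3K4me3 with H3K27me3 by a two-sided one, both adjusted over all windows with at least 1 read. The procedure was run on simulated read counts with changes placed in known windows. Their recovery is not given here, so the simulation is no check on effects of the sizes reported above. Described were windows called for any mark, the tile at 46.24 Mb, and tiles with most reads. The members, lists and tests were chosen with earlier results of these data known. The muscle gene list was not run, since no mm8 annotation was used. Software was matplotlib 3.10.9, scipy 1.17.1, numpy 2.4.6 and Python 3.11.15.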

Additional observations from a re-analysis of the deposited data

How the results depend on the processing

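The 1 H3K4me3 window became 0 at a ratio of at least 3 and with 1 kb windows, and the 1 H3K9me3 window became 2 when windows were moved by 0.5 of their width, which divides the marked stretch. The 1 H3K27me3 window became 2 with every read kept, with a shift of 100 bp and with moved windows, 4 with scaling by 100 kb bins, 3 with 8 kb windows, 12 against a uniform mean, and 0 at an adjusted p under 0.01, with the local WCE and with 1 kb windows. In the direct comparison, windows with H3K4me3 higher went from 0 to 1 with every read kept and with scaling by 100 kb bins, and the latter took windows with H3K27me3 higher from 4 to 0. Called tiles went from 0 to 1 for H3K4me3 with every read kept, with no shift and with scaling by 100 kb bins, and for H3K9me3 to 1 with moved tiles. Against a uniform mean they numbered 5 for H3K4me3, 10 for H3K27me3 and 4 for H3K9me3. Scaling by 100 kb bins raised log2 ratios by 0.73 for H3K4me3, 0.26 for H3K27me3 and 0.08 for H3K9me3, and took the H3K4me3 ratio over the interval to 1.58. Without the called window it was 0.672, and that of H3K9me3 1.05. The fold of the densest 3 kb was 22.4 with H3K9me3 in place of WCE, which is another library. Apart from the changed controls, thresholds and window sizes that account for a count by construction, the cause was not tested. The other 74 of 100 recomputed summaries did not move past these limits. The window at 46244001 has no value for moved windows, since no moved window matches it. About 7 WCE reads per 4 kb window limit what can be detected.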
